A study of Mus musculus with 3 samples.

Results

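In tumour-infiltrating immune cells of mice aged 4, 12 and 20 months, a population of T cells carried transcripts of Ly49 receptors, which are best known from natural killer (NK) cells. Cells were counted as Ly49-bearing T cells where they had at least 3 counts over the CD3 genes Cd3d, Cd3e and Cd3g and at least 3 counts over the Ly49 genes Klra1, Klra6 and Klra7. They also had no count of the NK receptor gene Ncr1, fewer than 10 counts over the complement genes C1qa, C1qb and C1qc, and at most 1 count over the cell division genes Mki67, Top2a, Birc5 and Ube2c. This rule found 1093 of 43730 cells, with 306 at 4 months, 571 at 12 months and 216 at 20 months. Of these, 993 had at least 1 count of Cd8a or Cd8b1 and 100 had none. The rule was chosen from measured counts of this dataset, so the levels of its own genes are descriptions of the choice.

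The mice carried subcutaneous grafts of YUMM1.7, a transplantable mouse melanoma line, given as 500000 cells and harvested 18 days later. The labels give age as the difference between groups, with 7 mice at each age, and name no strain, genotype, sex or treatment beyond the graft. Live CD45-positive leukocytes were sorted with an antibody to the CD45.2 form and profiled with a PIP-seq 3′ kit, a droplet method without a microfluidic chip. Each age is represented by 1 library. How the 7 mice contributed to it is not stated, so no comparison has a replicate check and no test across ages was possible. The libraries held 14393, 14653 and 14684 cells with 110371225, 127850782 and 119873564 counts, and 2 to 4 cell barcodes were shared by each pair of libraries. Intervals are exact 95% intervals and cover counting error only, and all values at an age come from a single library.

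Ly49 molecules are lectin-like surface receptors, encoded by the Klra genes, that bind class I molecules of the major histocompatibility complex. Inhibitory members recruit phosphatases such as SHP-1, the product of Ptpn6, through a motif in their cytoplasmic tail, and activating members such as Ly49H (Klra8) and Ly49D (Klra4) signal through the adaptor DAP12, the product of Tyrobp. NK cells carry them in varied combinations. In mice, small populations of CD8 T cells also carry inhibitory Ly49 receptors, among them Ly49-positive CD8 T cells described as regulatory, memory-phenotype CD8 T cells and some unconventional T cells of the gut.

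3 other classes served as references and were defined by counts in the same way. Ly49-negative T cells met the same rule but had no count of Klra1, Klra6 or Klra7, and numbered 2763, 3351 and 4418 at 4, 12 and 20 months. NK cells had an Ncr1 count and no CD3 count, and numbered 525, 96 and 142. C1q-high cells, with at least 10 counts of the complement genes and fewer than 3 CD3 counts, are macrophage-type cells that should lack the T cell genes, and numbered 1403, 557 and 1262. The Ncr1 condition removed the most cells: of 1077, 2037 and 923 cells with the CD3 and Klra counts, 706, 1275 and 652 had an Ncr1 count, the C1q condition then removed 21, 61 and 20, and the cell division condition 44, 130 and 35. At the threshold, 226, 351 and 127 T cells had exactly 2 Klra counts and fell outside, and 74, 105 and 46 had exactly 3 and fell inside. The median member had 6 Klra counts at each age, and the highest had 39, 67 and 34.

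The share of T cells that bore Ly49 counts was highest in the 12-month library and lowest in the 20-month library. It was 7.01% (306 of 4366, interval 6.27 to 7.81) at 4 months, 10.3% (571 of 5536, 9.53 to 11.1) at 12 months and 3.84% (216 of 5631, 3.35 to 4.37) at 20 months. The 12-month share stood 3.31 percentage points above the 4-month share (2.18 to 4.42), and the 20-month share 3.17 points below it (difference -3.17, -4.11 to -2.26). The 3 intervals did not overlap. Members had more counts per cell than Ly49-negative T cells, with medians of 6661, 6908 and 6656.5 against 5104, 5883 and 5810, so the shares were also taken after each cell was thinned to 3500 counts. The thinned shares were 5.63%, 8.31% and 2.76%, in the same order. Among C1q-high cells, 2.21%, 1.62% and 0.951% reached 3 Klra counts, and 0.547%, 0.245% and 0.16% did so after thinning, which gives the level that free RNA or mixed droplets reach in cells that should lack these genes. Their medians of 7901, 7396 and 7226 counts were above those of the members. Among NK cells the share was 36.4%, 44.8% and 33.8%. Classes were formed again after thinning, which lowers CD3 counts as well. C1q-high cells then numbered 1829, 1632 and 2500 and NK cells 1126, 470 and 415. Many of these cells were outside the class before thinning, so thinned values, here and below, are not of the same cells.

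**Figure D1:**
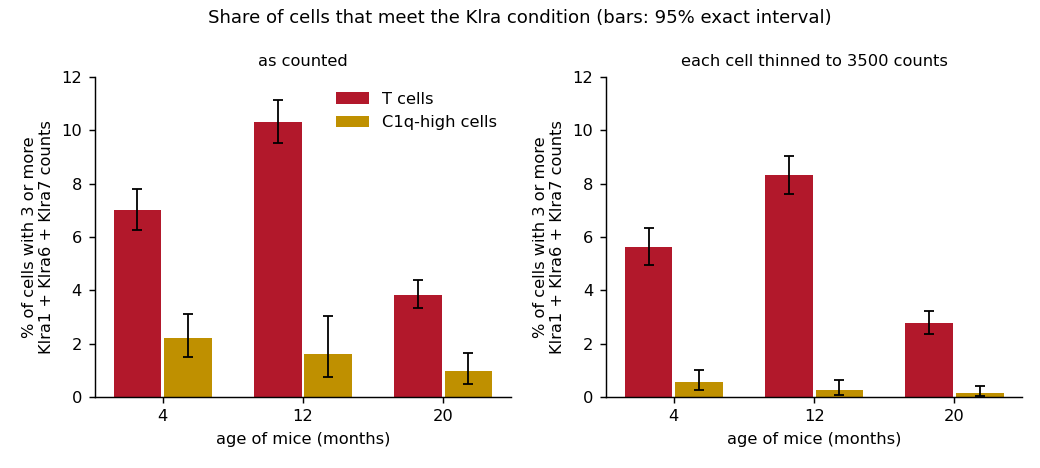
Percent of T cells (red) and of C1q-high cells (ochre) with 3 or more counts of Klra1, Klra6 and Klra7 by age in months, as counted (left) and after thinning each cell to 3500 counts (right). Error bars are exact 95% binomial intervals of 1 library per age, and the T cell share is 10.3% at 12 months against 7.01% and 3.84% at 4 and 20 months.

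Doublets bear on such cells, since a T cell and an NK cell in the same droplet would carry both sets of genes. Of the members, 9.80%, 7.36% and 11.6% were among the 6% of cells with the highest doublet score in their library, against 4.38%, 3.85% and 4.55% of Ly49-negative T cells. The part of doublets in the shares was not tested beyond leaving these cells out, which kept every share within its interval. Mitochondrial genes took a median of 2.33%, 2.23% and 2.45% of member counts and 1.97%, 1.90% and 2.16% of counts in Ly49-negative T cells.

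Klra1, Klra3, Klra4, Klra6, Klra7, Klra8, Klra9 and Klra13-ps lie near each other on the minus strand of chromosome 6 (GRCm38). They lie between the NK gene Klrb1c, at 128778485 to 128789215, and the far end of Klra1. Klra6 spans 130013033 to 130026954, Klra7 130218605 to 130233322 and Klra1 130363917 to 130386874. Levels below are in CPM, the count of a gene scaled to a common total, summed over all cells of a class in a library. Klra7, which encodes Ly49G2, stood at 699, 765 and 675 CPM in members at 4, 12 and 20 months and at 551, 625 and 511 in NK cells. Klra1, which encodes Ly49A, stood at 275, 295 and 225 CPM in members and 113, 180 and 147 in NK cells. Klra6, which encodes Ly49F, stood at 134, 121 and 140 CPM in members and only 12.0, 8.18 and 7.88 in NK cells. Members were chosen by the sum of these 3 genes and NK cells were not, so the higher member levels are fixed in part by the rule.

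The genes of the activating receptors, which the rule did not use, were lower in members than in NK cells. Klra8 stood at 85.9, 59.4 and 81.9 CPM in members and 857, 838 and 720 in NK cells, against 59.9, 43.3 and 22.8 in Ly49-negative T cells. Klra4 stood at 46.8, 39.9 and 62.7 CPM in members and 664, 589 and 539 in NK cells, against 40.9, 32.1 and 18.1 in Ly49-negative T cells. After thinning, Klra8 was seen in 20.7%, 16.6% and 16.4% of members, in 19.4%, 12.9% and 7.72% of C1q-high cells and in 51.7%, 53.4% and 42.9% of NK cells, so that at 4 months the members' share was near the background. Without any cell that had a Klra4 or Klra8 count, Ly49-bearing cells still made up 6.53%, 10.1% and 3.56% of the remaining T cells, a calculation added after the data had been seen.

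3 further Klra genes that the rule did not use were also higher in members than in Ly49-negative T cells, although the direct choice on neighbouring genes makes this no independent result. Klra3 (Ly49C) stood at 82.7, 149.97 and 80.6 against 22.4, 34.7 and 18.5 CPM, and Klra9 (Ly49I) at 97.4, 79.5 and 73.6 against 27.2, 19.6 and 11.3 CPM. The pseudogene Klra13-ps stood at 200.2, 196 and 418 CPM against 37.8, 53.1 and 46.9, with the highest member level at 20 months. Of 639 stretches of 90 bases at the 3′ end of Klra7 transcripts, 42 (6.57%) occur in Klra13-ps as well, so reads of these 2 genes can be split between them and both levels are uncertain to that extent. Klra9 shared 81 of 654 stretches (12.4%) and Klra3 35 of 680 (5.15%) with other Klra genes, so their levels carry the same limit. Klra1, Klra6, Klra4 and Klra8 shared no such stretch with another Klra gene. In Ly49-negative T cells, Klra2 stood at 97.0, 94.7 and 83.2 CPM, above the members' 50.1, 27.4 and 36.5, and in C1q-high cells of 4 months it reached 348.

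**Figure D2:**
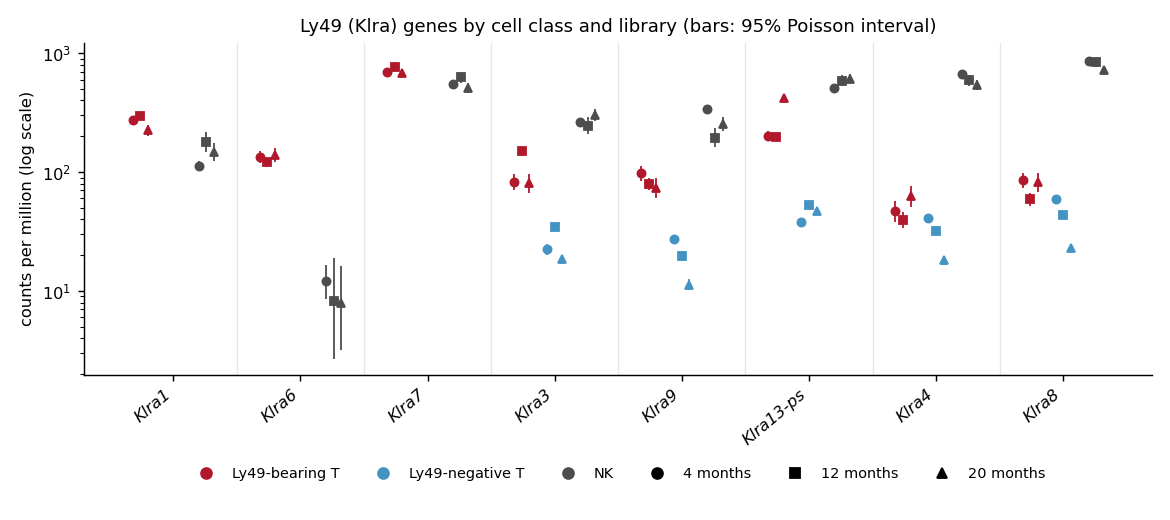
Level of 8 Klra genes in CPM on a log axis, in Ly49-bearing T cells (red), Ly49-negative T cells (blue) and NK cells (grey), with the marker shape giving the age and bars the 95% Poisson interval. Klra1, Klra6 and Klra7 are 0 in Ly49-negative T cells by the rule and not drawn; Klra6 is above 100 in members and near 10 in NK cells, while Klra4 and Klra8 are highest in NK cells.

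Within a cell, members more often had a Klra6 count, and more often all 3 genes, than NK cells did. Both groups were chosen by the sum of these genes, so the shares are a description. Among members, 55.6%, 60.2% and 45.8% had a Klra1 count, 45.1%, 37.5% and 45.8% a Klra6 count and 90.2%, 91.9% and 91.2% a Klra7 count at 4, 12 and 20 months. Among NK cells with at least 3 counts of the same genes, Klra1 was present in 33.0%, 41.9% and 41.7%, Klra6 in 6.28%, 4.65% and 4.17% and Klra7 in 93.7%, 86.0% and 85.4%. All 3 genes were seen together in 21.6%, 18.4% and 19.0% of members and in 1.05%, 2.33% and 2.08% of these NK cells. These NK groups held 191, 43 and 48 cells, with 1 such cell at 12 months and 1 at 20 months. A share with all 3 genes cannot exceed the share with Klra6, so it adds little for NK cells. After thinning to the same depth, the 3 genes were together in 16.7%, 14.4% and 13.8% of members and 1.81%, 2.34% and 1.48% of NK cells.

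Stretches of the promoters of Klra6 and Klra7, which are genes of the rule, are shown beside those of Klra4 and Klra8. Klra4 and Klra8 were higher in NK cells than in members, but Klra7 was also high in NK cells, so the pairs are no clean contrast. The sequences are from RefSeq (GRCm38.p6), each the 150 bases before the start of the gene on the minus strand, at chr6:130026955-130027104, chr6:130233323-130233472, chr6:130067272-130067421 and chr6:130129899-130130048. Capitals mark the words CTTTGA and CTTTGT, forms of the core that the T cell factors TCF-1 and LEF-1 recognise, searched on both strands over 250 bases. TCF-1, the product of Tcf7, is known to be needed for Ly49A on NK cells.
Klra6: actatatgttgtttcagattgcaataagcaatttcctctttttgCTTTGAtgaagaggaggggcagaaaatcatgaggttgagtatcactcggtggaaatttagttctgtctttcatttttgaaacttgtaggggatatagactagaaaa
Klra7: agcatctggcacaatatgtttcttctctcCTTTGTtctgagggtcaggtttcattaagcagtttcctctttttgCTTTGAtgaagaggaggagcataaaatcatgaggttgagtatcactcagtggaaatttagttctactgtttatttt
Klra4: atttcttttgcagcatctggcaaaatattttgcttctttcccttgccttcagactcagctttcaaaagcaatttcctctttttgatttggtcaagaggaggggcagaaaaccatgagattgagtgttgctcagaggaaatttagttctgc
Klra8: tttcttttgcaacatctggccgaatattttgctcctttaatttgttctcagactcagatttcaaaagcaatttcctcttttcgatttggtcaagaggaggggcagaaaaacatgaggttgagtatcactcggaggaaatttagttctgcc
CTTTGA lay 106 bases before the start of Klra6 and 76 bases before that of Klra7, and CTTTGT lay 121 bases before that of Klra7. Klra9 had CTTTGT at 25 bases, and the windows of Klra1, Klra3, Klra4 and Klra8 had neither word. Klra1 and Klra3 were also higher in members than in Ly49-negative T cells. The Klra1 window, before its farthest upstream start, shared no run longer than 8 bases with that of Klra6 or Klra7. Whether members use this start was not tested. Of 32851 RefSeq starts, 27.6% have at least 1 of these words in the same window, so a match is common and says nothing of binding. The longest run shared by Klra6 and Klra7 was 30 bases and that shared by Klra4 and Klra8 was 27 bases. Longer runs joined other pairs: 51 bases for Klra6 with Klra3 and with Klra9, and 75 bases for Klra3 with Klra9.

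Against Ly49-negative T cells of the same library, 12 of 2888 genes with a mean of at least 50 CPM (0.416%) were at least 2-fold higher in members in all 3 libraries and 51 (1.77%) at least 2-fold lower, with the genes of the rule left out. Because members and Ly49-negative T cells were separated by measured counts of the same cells, these differences describe the population and were not tested. The 12 higher genes were Klra13-ps, Klra3, Klrb1c, Klra9, Xcl1, Cd7, Ifngas1, Txk, Tcf7, Samd3, Cd160 and Bcl2. The count was 12 to 17 under every alternative run, which were scaling, gene filter, reference class, weighting of cells, cells with a Cd8 count only, cells without Klra4 or Klra8, and each library left out. The count of lower genes was 115 without the 4-month library and 60 and 56 without the 12-month and 20-month libraries.

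Other receptors shared with NK cells were higher. Klrb1c, which encodes the NK1.1 antigen, stood at 142, 158 and 176 CPM in members against 39.3, 34.3 and 20.3 in Ly49-negative T cells, a log2 ratio of 1.86 (1.66 to 2.05), 2.20 (2.05 to 2.35) and 3.11 (2.90 to 3.32), while NK cells had 513, 453 and 493. Klre1, an inhibitory or activating lectin depending on its partner, stood at 352, 396 and 396 against 181, 130 and 112 CPM. Klrd1, which encodes the CD94 chain that pairs with NKG2 receptors, stood at 655, 618 and 579 against 522, 364 and 381 CPM. Of the 7 other NK lectin genes with enough counts, 5 were higher and 1 lower in members in all 3 libraries, with a median log2 ratio of 0.33, 0.76 and 0.60. Over all 2888 genes, 33.7% were higher in all 3 libraries at any size and 40.8% lower, with medians of -0.05, -0.01 and -0.03. The lower gene was Klrg1, a receptor of terminal effector cells, at 24.3, 34.2 and 16 against 121, 79.5 and 60.9 CPM. Tyrobp, the adaptor gene of activating receptors, stood at 531, 393 and 452 CPM in members, below 807, 747 and 682 in Ly49-negative T cells and 2703, 2491 and 2544 in NK cells. C1q-high cells had 2132, 1924 and 2057 CPM of it, and the part of their RNA in the T cell levels was not tested.

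Among other genes that members carried at a higher level, Cd7 encodes a surface protein of T and NK cells, CD160 is a receptor for herpesvirus entry mediator and class I molecules, and Xcl1 encodes a chemokine that attracts cross-presenting dendritic cells. Xcl1 stood at 1050, 1028 and 1097 CPM against 297, 335 and 267, with NK cells at 1889, 2358 and 2358. Cd7 stood at 366, 440 and 296 against 125, 118 and 109 CPM, and Cd160 at 273, 343 and 240.0 against 106, 115 and 107 CPM. For each of these 3 genes the lowest member library lay above the highest Ly49-negative library. Txk, a kinase of the Tec family, stood at 198, 189 and 205 against 61.8, 66.7 and 82.3 CPM, and the non-coding gene Ifngas1 next to Ifng at 89.6, 74.0 and 82.6 against 13.6, 19.0 and 32.4 CPM.

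Nsg2 separated members from NK cells. It is known mainly as a gene of neuronal endosomes and is also transcribed in T cells, and stood at 88.2, 74.3 and 66.6 CPM in members, 19.1, 23 and 28.8 in Ly49-negative T cells and 3.92, 3.27 and 5.63 in NK cells. The log2 ratio to Ly49-negative T cells was 2.21 (1.94 to 2.47), 1.69 (1.48 to 1.89) and 1.21 (0.90 to 1.5), past 2-fold at each age. Per cell it was seen in 40.8%, 35.2% and 33.3% of members, 8.22%, 11% and 13.9% of Ly49-negative T cells, and 1.92%, 5.21% and 3.01% of C1q-high cells. After thinning the shares were 26.4%, 20.0% and 17.0% of members and 1.69%, 1.70% and 3.13% of NK cells. Its mean over classes and libraries was just under the 50 CPM filter, and it is not among the 12 genes above.

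**Figure D3:**
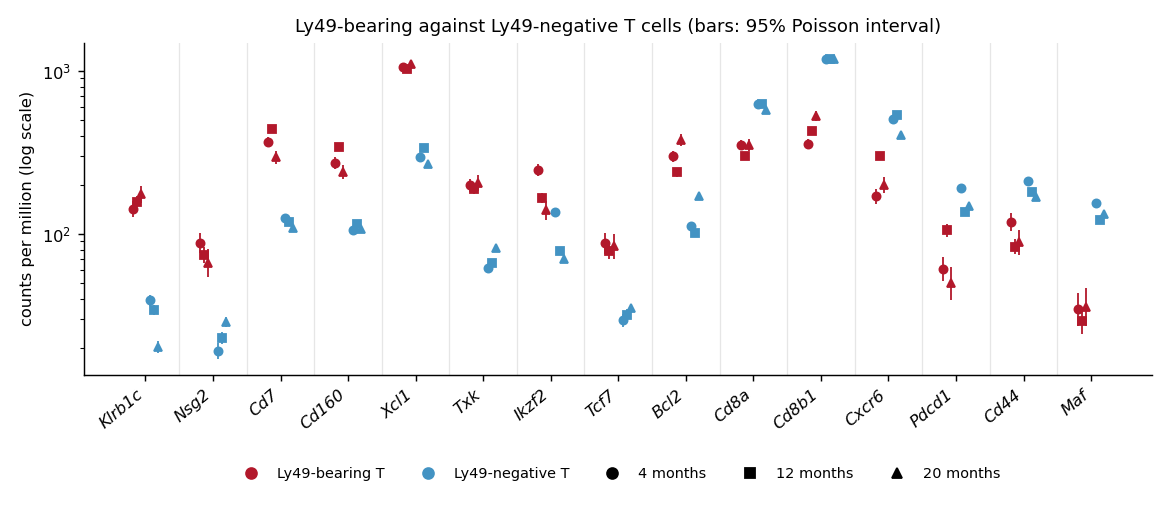
Level of 15 genes in CPM on a log axis in Ly49-bearing (red) and Ly49-negative (blue) T cells, with the marker shape giving the age and bars the 95% Poisson interval. The genes from Klrb1c to Bcl2 are higher in members and those from Cd8a to Maf lower; Pdcd1 is the closest to the Ly49-negative level at 12 months.

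The members had a full set of T cell receptor transcripts. Trac, the constant gene of the alpha chain, stood at 1169, 1236 and 992 CPM against 1330, 1225 and 1022 in Ly49-negative T cells and 102, 153 and 128 in C1q-high cells. Of 16 genes of the receptor and CD3 complex, 3 were higher and 5 lower in all 3 libraries, beside 33.7% and 40.8% of all genes. Cd5, a brake on receptor signalling, was lower at 78.1, 90.5 and 76.8 against 148.9, 146 and 111 CPM, and Cd6 at 73.9, 85.6 and 69.1 against 143, 147 and 126 CPM. Zbtb16, the factor of NKT cells, had a count in 1.63%, 0.525% and 0.463% of members, below the 3.06%, 4.67% and 3.17% of C1q-high cells, and the 4 NKT markers summed to 5.51, 2.83 and 3.84 CPM. Cd4 had a count in 3.27%, 4.38% and 4.63% of members and 3.85%, 6.28% and 4.91% of C1q-high cells. Neither Cd4 nor Zbtb16 was thus seen clearly above background. Trdc, the constant gene of the delta chain, was seen in 13.1%, 8.58% and 14.8% of members and 6.49%, 7.36% and 8.16% of C1q-high cells.

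CD8 transcripts were present at a reduced level and in another proportion. Cd8a stood at 352, 299.7 and 349 CPM in members against 623, 622 and 571 in Ly49-negative T cells, and Cd8b1 at 354, 428 and 530 against 1173, 1188 and 1184. In C1q-high cells Cd8b1 stood at 110, 200 and 180 CPM, through free RNA or mixed droplets, which cannot be told apart here. Member levels were above this background at each age. The log2 ratio of Cd8b1 was -1.73 (-1.83 to -1.62), -1.47 (-1.54 to -1.40) and -1.16 (-1.26 to -1.06), and that of Cd8a was -0.82, -1.05 and -0.71. The ratio of Cd8b1 to Cd8a counts was 1.01, 1.43 and 1.52 in members, 1.88, 1.91 and 2.07 in Ly49-negative T cells and 1.83, 2.32 and 2.14 in C1q-high cells, so members had the lowest ratio in every library. The CD8 alpha chain can form a pair with itself or with the beta chain, and gut T cells with the first form are a known unconventional population.

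A Cd8 count as such said little about a cell. It was found in 83.3%, 93.5% and 94.4% of members, 87.8%, 95.2% and 95.5% of Ly49-negative T cells and still 72.9%, 88.7% and 83.4% of C1q-high cells, and after thinning in 67.9%, 77.0% and 80.5% of members against 85.6%, 90.2% and 92.9% of Ly49-negative T cells. Between the 993 members with and the 100 without a Cd8 count, no gene of 2762 (0.0%) was past 2-fold higher in all 3 libraries, and 1 (0.0362%) was counted as lower only through the floor of 3 counts. That gene was Slc5a6, a vitamin transporter, at 84.4, 37.5 and 21.4 CPM with and 215, 119 and 0 CPM without a Cd8 count. It was thus lower with a Cd8 count in 2 libraries and higher at 20 months, where the floor turned its direction. Klrb1c stood at 130, 154 and 173 CPM with and 225, 216 and 235 CPM without a Cd8 count, and Ccr7 at 112, 185 and 116 with and 74.9, 102 and 29.3 without.

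Of 10 measured genes of resting and memory T cells, 7 were higher and 1 lower in members in all 3 libraries, beside 33.7% and 40.8% of all genes, with median log2 ratios of 0.58, 0.66 and 0.62. Tcf7, the factor of self-renewing and memory T cells, stood at 87.7, 78.3 and 84.5 against 29.5, 32.0 and 35.1 CPM. Bcl2, a survival gene, stood at 299, 238 and 378 against 113, 101 and 170 CPM. Lef1 stood at 80.8, 67.7 and 88.3 against 40.4, 40.5 and 54.8 CPM and Eomes at 45.0, 57.3 and 77.4 against 23.2, 30.3 and 40.2 CPM. Il7r, the interleukin-7 receptor, was the exception at 50.5, 70.5 and 106 against 106, 92.7 and 117 CPM. Of 11 innate-like memory CD8 genes, which overlap this list, 7 were higher and 3 lower. Cd44, a standard surface mark of memory cells, was among the lower ones at 118, 83.5 and 89.0 against 212, 181 and 168 CPM.

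Of the genes described for Ly49-positive regulatory CD8 T cells, 2 of 8 were higher and 3 lower in all 3 libraries, near the shares of 33.7% and 40.8% over all genes. Ikzf2, which encodes Helios, stood at 247, 166 and 140 CPM against 136, 78.8 and 70.6, a log2 ratio of 0.85 (0.72 to 0.99), 1.08 (0.95 to 1.21) and 0.98 (0.77 to 1.19), while NK cells had 30.7, 40.9 and 38.3. Il2rb, the CD122 chain of the interleukin-2 and interleukin-15 receptors, stood at 632, 602 and 532 against 433, 364 and 342 CPM. Icos was lower at 68.0, 89.8 and 58.9 against 206, 179 and 124 CPM, as were Cd44 and Entpd1. Foxp3 had a count in 5.23%, 6.48% and 3.24% of members and 3.92%, 7.00% and 4.36% of C1q-high cells, which is background.

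Genes of exhausted and tissue-resident cells were mostly lower in members. Over all 2888 genes, 40.8% were lower and 33.7% higher in all 3 libraries. Of 9 exhaustion genes, 6 were lower and 1, Cd160, higher in all 3 libraries, with medians of -0.75, -0.30 and -0.49. Pdcd1, which encodes PD-1, stood at 61.1, 105 and 49.9 against 192, 136 and 148 CPM, and Ctla4 at 241, 289 and 268 against 480, 420 and 376 CPM. Of 5 residency genes 4 were lower and Cd69 was higher. Cxcr6, a receptor that holds T cells in tissue, stood at 169.9, 300.4 and 199.7 against 509, 538 and 405 CPM. Among factors, Maf stood at 34.4, 29.2 and 35.8 against 155, 122 and 132 CPM, Zeb2 at 55.1, 49.5 and 50.6 against 166, 170 and 145, and Id2 at 489, 573 and 575 against 1016, 942 and 850. Effector products were mixed: of 14 cytotoxic genes 3 were higher and 2 lower, each a smaller part than over all genes. Gzmb, the main killer protease, stood at 2221, 2056 and 1648 against 3610, 2801 and 2197 CPM, and Ccl4 at 388, 583 and 534 against 1310, 1067 and 833 CPM, while Ccl5 was higher only in the 12-month library. Early response genes also react to tissue digestion. Of these, 5 of 9 were lower, not far above the 40.8% of all genes, and none higher. Their medians were -0.20, -0.39 and -0.26.

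Many of the lower genes belong to myeloid cells. Of the 12 genes with the largest decrease, Lyz2 (lysozyme), Ccl6, Ccl9 and Cd14 are myeloid genes, beside Maf, Zeb2, Lgals3, Ly6a2, Ifitm1, Ifitm6, AA467197 and Pid1. Lyz2 stood at 1229, 741 and 648 CPM in members, 3915, 3188 and 3029 in Ly49-negative T cells and 3459, 3695 and 4488 in C1q-high cells. All 4 macrophage markers with enough counts were lower in all 3 libraries, beside 40.8% of all genes. The whole list of 8 summed to 1598, 1098 and 1087 CPM in members against 4561, 4028 and 3991, with none at 0 in members. Fewer counts of these genes moved together with the lower levels of Maf, Zeb2, Ccr2, Ccl3 and Ccl4, all of which C1q-high cells carry, and the part of myeloid RNA in those differences was not tested. In C1q-high cells Cxcr6 stood at 47.1, 94.8 and 63.1 CPM and Pdcd1 at 25.8, 34.2 and 36.9. Markers of B cells, neutrophils, melanoma, fibroblasts, endothelium and red cells were all below the 50 CPM filter, with sums in members of 9.19 to 14.1, 31.4 to 36.8, 5.42 to 10.9, 1.18 to 11.5, 40.8 to 42.9 and 2.56 to 51.9 CPM.

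T cells grouped by their number of Ly49 counts differed in level, evenly for some genes and not for others. T cells with 1 or 2 Klra counts, which the rule leaves out, were close to those with none: Cd7 stood at 123, 125 and 100.4 CPM against 125, 118 and 109, and Klrb1c at 36.6, 41.5 and 28.3 against 39.3, 34.3 and 20.3. In T cells with 3 to 9 counts, Cd7 stood at 302.5, 282 and 239 CPM, and in those with 10 or more at 506, 730 and 466. Cd8b1 decreased over the 4 bands from 1173 over 897 and 432 to 182 CPM at 4 months, from 1188 over 970 and 510 to 276 at 12 months and from 1184 over 1029 and 564 to 431 at 20 months. Lyz2 was highest at 1 or 2 counts, with 4695, 3990 and 3324 CPM, and lowest at 10 or more, with 887, 590 and 645. Just at the threshold, T cells with exactly 2 and exactly 3 counts had Xcl1 at 466 and 672 CPM at 4 months, 407 and 793 at 12 months and 288 and 1485 at 20 months, the last from 127 and 46 cells. Cd7 showed no such step at 20 months, with 158 and 153 CPM. Of all Xcl1 counts of members, 10 cells held 41.7% at 20 months, against 18.3% and 21.9% at 4 and 12 months. How far the 20-month step of Xcl1 rests on few cells was not tested. Other genes did not follow the bands evenly. Pdcd1 at 12 months stood at 136, 116, 70.5 and 169.7 CPM over the 4 bands. Between the bands of 3 to 9 and 10 or more counts, Cxcr6 went from 292 to 316 CPM at 12 months and from 192 to 222 at 20 months, and Xcl1 from 1085 to 922 at 12 months. Klra8 stood at 59.9 CPM in the lowest and 100.03 CPM in the highest band at 4 months. The bands are set by the same counts as the rule and also differ in depth, so the gradient is a description.

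**Figure D4:**
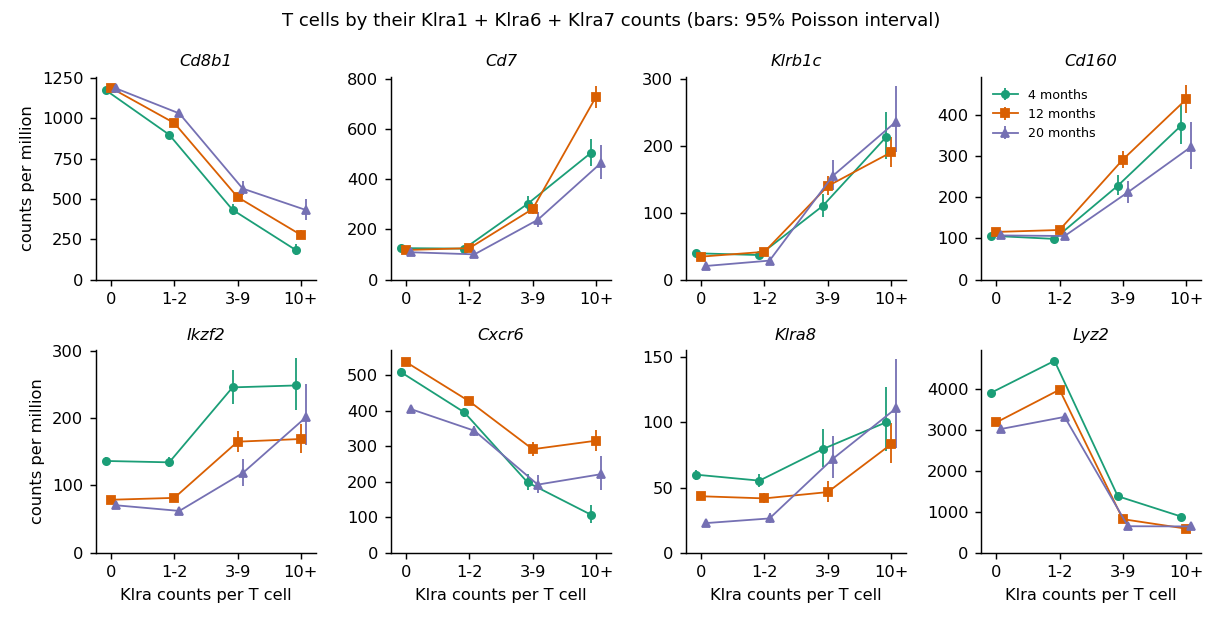
Level of 8 genes in CPM in T cells with 0, 1 to 2, 3 to 9 and 10 or more counts of Klra1, Klra6 and Klra7 together, with a line per library and 95% Poisson bars. Cd8b1, Cxcr6 and Lyz2 are lower and Cd7, Klrb1c, Cd160 and Ikzf2 higher in the bands of 3 or more counts, and the step lies between 1 to 2 and 3 to 9 counts for most genes.

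Between ages, few genes moved by 2-fold within the members. Of 2765 genes with a mean of at least 50 CPM in members, 8 (0.289%) were at least 2-fold higher and 8 (0.289%) at least 2-fold lower at 12 than at 4 months, and 13 (0.470%) and 12 (0.434%) at 20 than at 4 months. Of the 12-month genes some moved in every class of the library. Cbfa2t2, for example, stood at 8.27 CPM at 4 months, 488 at 12 months and 7.68 at 20 months in members, and at 8.73, 493 and 8.12 in Ly49-negative T cells. Gm47854 and Stxbp3-ps were also higher at 12 months in members, Ly49-negative T cells and C1q-high cells, and Ppfia2 was lower in all 3 classes, at 189.7, 26.2 and 72.3 CPM in members. At 20 months Gzmm, Rab10os, Ppfia2 and Gzma moved past 2-fold the same way in these 3 classes. Both contrasts use the 4-month library. Without the 10 highest cells of each gene, 2 genes were lower at 12 months and 5 higher at 20 months.

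Ly49-bearing T cells of the 12-month library had higher levels of Pdcd1, Ccl3, Ccl4, Ifng, Klrc1 and Cxcr6 than those of the 4-month library, while Ly49-negative T cells had lower or nearly equal levels. Pdcd1 stood at 61.1 and 105 CPM at 4 and 12 months, a log2 ratio of 0.79 (0.50 to 1.08), against -0.49 in Ly49-negative T cells. Ccl3 stood at 84.5 and 155 CPM, a ratio of 0.87 against -0.36, and Ccl4 at 388 and 583, a ratio of 0.59 against -0.30. Klrc1, which encodes the inhibitory receptor NKG2A, stood at 256 and 422 CPM, a ratio of 0.72 against -0.20, and at 369 at 20 months. Cxcr6 stood at 169.9 and 300.4 CPM, a ratio of 0.82 against 0.08. Of 8 exhaustion genes 6 were higher and 2 lower at 12 months, beside 49.6% and 50.4% of all genes, with a median of 0.27 in members and -0.36 in Ly49-negative T cells, and the median over all genes was -0.00. Gzmk, a granzyme of early effector and memory cells, stood at 36.3 and 94.3 CPM, a ratio of 1.38 (1.03 to 1.75) against 0.19. The difference between the 2 populations was not tested, since each age is 1 library.

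Part of the 12-month pattern lay in members that also carried a T cell receptor gamma transcript. Trgc2, a constant gene of the gamma chain that many alpha-beta T cells also transcribe, stood at 148, 293 and 96.0 CPM in members and at 84.9, 74.2 and 64.8 in Ly49-negative T cells. Cells with at least 3 Trgc2 counts, a class chosen after these values had been seen, were 14.4% of members at 4 months (44 of 306), 24.5% at 12 months (140 of 571) and 7.87% at 20 months (17 of 216). They were 5.97%, 6.06% and 5.91% of Ly49-negative T cells, and no NK or C1q-high cell qualified. At 12 months Trac stood at 1368 CPM in these members and 1190 in the rest, and Trdc at 49.2 and 33.1, so they carried alpha chain transcripts. At 4 months Trdc stood at 254 CPM in them and 40.4 in the rest. Trgv2 gave 81.7%, 87.3% and 78.9% of all counts of gamma V genes in members.

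At 12 months the 140 members with at least 3 Trgc2 counts differed from the other 431. Pdcd1 stood at 234 CPM in them and 60.5 in the rest, a log2 ratio of 1.95 (1.68 to 2.23), and Tox, a factor of chronically stimulated T cells, at 154 and 50.9. Cd7 stood at 943 and 263 CPM, S100a4 at 952 and 296, and Ccl3 at 304 and 103. Klra7 stood at 982 and 690 CPM and Klra1 at 387 and 263, whereas Klra6 stood at 92.0 and 131. Lower in them were Ccr7 at 65.6 and 221 CPM, Xcl1 at 675 and 1151 and Klrb1c at 101 and 178. Without these cells at every age, the 12 over 4 month ratio of Pdcd1 was 0.00, that of Tox -0.11 and that of Cd7 -0.32, whereas Klrc1 kept 0.73 and Cxcr6 0.71. At 4 months Pdcd1 stood at 65.8 and 60.3 CPM in groups of 44 and 262 cells formed by the same Trgc2 count. Trdc stood at 254 CPM in the group of 44 and at 49.2 CPM in the group of 140. The cells left out at the 2 ages were thus not alike in this gene. At 20 months Pdcd1 stood at 125 and 41.8 CPM in groups of 17 and 199 cells, a ratio of 1.58 (0.75 to 2.35). The ratio there was 1.01 for Tox, 1.25 for Ccl3, -0.99 for Ccr7, -1.10 for Xcl1 and -1.01 for Klrb1c. Not all genes repeated the 12-month direction. At 20 months S100a4 gave 0.20 (-0.27 to 0.64) and Klra7 -0.26 (-0.59 to 0.06). At 4 months S100a4 gave -0.86 (-1.25 to -0.49) and Tox -0.22 (-1.11 to 0.56).

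**Figure D5:**
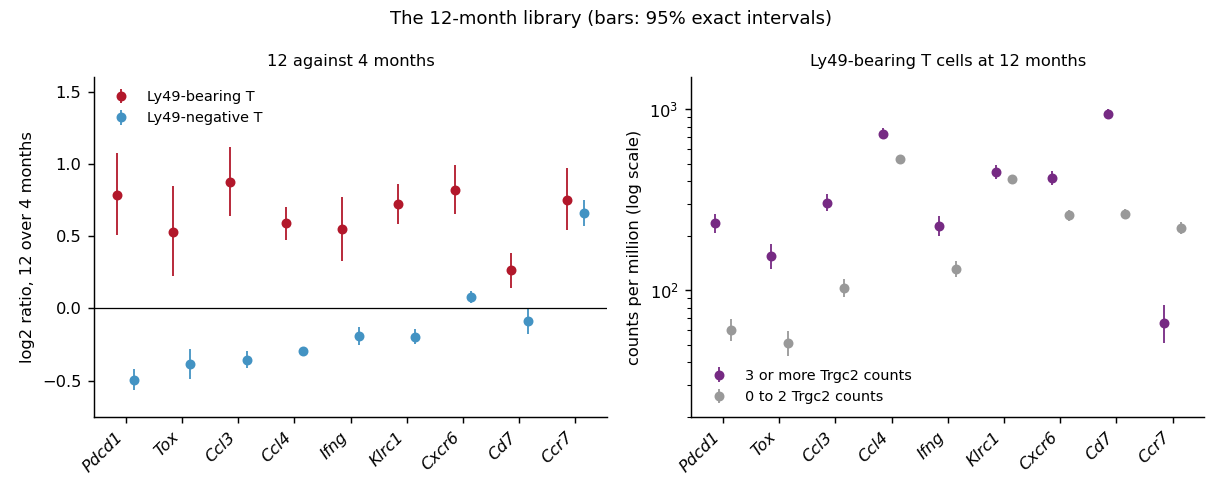
Left, log2 ratio of 12 over 4 months of 9 genes in Ly49-bearing (red) and Ly49-negative (blue) T cells; right, their level in CPM (log axis) in Ly49-bearing T cells of 12 months with 3 or more Trgc2 counts (purple, 140 cells) and with 0 to 2 (grey, 431 cells). Bars are exact 95% intervals; Pdcd1, Tox and Cd7 are higher and Ccr7 is lower in the purple group, and Klrc1 differs least.

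Receptor segments were unevenly used in the same library. Trav14-1, a V gene of the alpha chain, was seen in 37 of 571 members at 12 months (6.48%), 2 of 306 at 4 months and 0 of 216 at 20 months, where a count of 0 allows a share of up to 1.39% by the limit of 3 counts and 1.69% by the exact interval. In Ly49-negative T cells it was seen in 35 of 3351 at 12 months (1.04%), 6 of 2763 at 4 months and 5 of 4418 at 20 months. The 12-month share of Ly49-negative cells was near that of C1q-high cells, 5 of 557 (0.898%), and so at background. Of all 14653 cells of that library, 328 (2.24%) had a Trav14-1 count, so most of them lay outside the members. It was seen in 25 of 938 cells (2.67%) that met the rule except for an Ncr1 count. Of T cells with 1 or 2 Klra counts, 23 of 1614 (1.43%) had it. Trav14-1 gave 12.8% of all alpha V counts of the 12-month members (54 of 422), where the next gene, Trav4-3, gave 16. The leading genes of 4 and 20 months gave 7 of 115 and 6 of 109. Of the 37 members, 30 had at least 3 Trgc2 counts and 19 also had a count of the joining gene Traj49. Both genes together were seen in 66 cells of the whole 12-month library and in 1 cell each of the other 2. Their Klra counts were high, with a median of 13 against 6 in the other 12-month members. Among the 130 dividing cells of 12 months that met the rest of the rule, 26 (20.0%) had a Trav14-1 count, 17 had both genes and 57 (43.8%) had at least 3 Trgc2 counts. Segments of a 3′ library are seen only in part, so cells without a count may carry the same segments. The 37 members had counts of 13 beta V genes, led by Trbv13-1 in 6 cells and Trbv3 in 5. They had counts of 5 alpha joining genes, with Traj18 in 5 cells after Traj49. Whether these cells share a receptor was not tested. Trav14-1 lies at 53554022 to 53554558 and Traj49 at 54168686 to 54168747 of chromosome 14.

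At 20 months members differed from 4 months in other genes. Il7r stood at 50.5, 70.5 and 106 CPM at 4, 12 and 20 months, a log2 ratio of 1.07 for 20 over 4 months against 0.14 in Ly49-negative T cells. Gzmm stood at 19.3, 62.0 and 147 CPM in members, in Ly49-negative T cells at 25.4, 38.1 and 129, and in C1q-high cells at 2.86, 5.44 and 12.4. Gzma stood at 429, 329 and 140 CPM in members and 531, 270 and 123 in Ly49-negative T cells, and in C1q-high cells at 207, 142 and 99.3. In members 10 cells held 55.0% of the 4-month counts, and the 12 over 4 month ratio was 0.064 without the 10 highest cells of each library and 0.13 with 5 or more Klra counts. Ikzf2 stood at 247, 166 and 140 CPM in members, with a log2 ratio of 20 over 4 months of -0.82, against -0.95 in Ly49-negative T cells. Klri2, a lectin gene next to the Ly49 cluster, stood at 42.7, 34 and 74.9 CPM, a ratio of 0.81 at 20 months against -1.04. Of 9 early response genes 8 were lower and 1 higher at 20 months, beside 60.8% and 39.2% of all genes, with a median of -0.61 in members, -0.48 in Ly49-negative T cells and -0.08 over all genes.

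Several of the largest 20-month values came from very few cells. Gzmd, Gzmf and Gzmg, granzymes of strongly stimulated killer cells, were far higher than at 4 months, with a log2 ratio of 7.35 for Gzmd and 7.66 for Gzmf. A single cell held 463 of 468 Gzmd counts, 866 of 871 Gzmf counts and 571 of 572 Gzmg counts, and the same cell held 137 of 137 Gzme counts. This cell also held 672 of 1102 Spp1 counts, so the Spp1 level of 705 CPM at 20 months against 250.3 at 4 months rests on it. Of Cdk8 counts, 192 of 313 came from another cell. Genes lower at both later ages included Ccl2 at 165, 55.6 and 44.8 CPM, Slfn4 at 101, 34.9 and 39.7 and Ifitm3 at 955, 495 and 469. In C1q-high cells of 4 months Ccl2 stood at 676 CPM, Slfn4 at 416 and Ifitm3 at 4822. These are genes of myeloid and interferon-exposed cells, and the summed macrophage markers of members were lower at the later ages as well, at 1598, 1098 and 1087 CPM. The part of myeloid RNA in these age differences was not tested.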

How the data were processed

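PIP-seq libraries of sorted CD45-positive cells, 1 per age, were analysed. The authors deposited gene by cell count matrices, and the submitters' processing notes name STAR 2.7.10a and the build GRCm38. Whether a count is a molecule or a read, and how cells were filtered, is not given in the sources used here. All deposited cells were used, with no further filter. Counts were summed per library and class and given as CPM, scaled to a common total. Levels have exact Poisson, shares Clopper-Pearson and ratios exact conditional binomial 95% intervals, which cover counting error only. A count of 0 was set to 3 counts in ratios where the other side had more than 3 counts. Otherwise the log2 ratio was set to 0. Genes needed a mean of 50 CPM and were counted past 2-fold; rule genes were left out. With 1 library per age no test was made.

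For shares, each cell was thinned to 3500 counts, which left out no cell; classes were then formed again. Doublets were kept; as an alternative the 6% of cells with the highest Scrublet score (scanpy 1.11.5) were left out. TMM scaling used edgeR 4.0.16 in R 4.3.3. Other steps used Python 3.11.15, numpy 2.4.6, scipy 1.17.1 and pandas 2.3.3, and matplotlib 3.10.9 drew the plots. There were 107 symbols shared by several gene identifiers, none in the rule. Named genes were those of the rule, markers and gene lists, the 12 each way with the largest smallest-over-libraries ratio between classes, and the 10 each way with the largest ratio between ages. The calculations were tested on simulated data. The members and lists were chosen with earlier results of these data known.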

Additional observations from a re-analysis of the deposited data

Results flagged for a closer look

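Several genes moved in opposite directions in Ly49-bearing and Ly49-negative T cells between ages, with intervals on either side of 0. The difference between the populations was not tested, since each age is 1 library, and the intervals cover counting error only. For 12 over 4 months the log2 ratio in Ly49-bearing cells was 0.874 for Ccl3, 0.589 for Ccl4, 0.547 for Ifng, 0.72 for Klrc1, 0.787 for Pdcd1, 0.53 for Tox and 0.987 for Trgc2. In Ly49-negative T cells it was -0.36, -0.30, -0.19, -0.20, -0.49, -0.39 and -0.20 for the same genes. Fos and H2-Ab1 were lower in Ly49-bearing cells, at -0.511 and -0.516, and higher in Ly49-negative cells, at 0.23 and 0.46. The ratio of H2-Ab1 in Ly49-bearing cells turned to 0.42 without the 10 highest cells and to 0.014 with 5 or more Klra counts.

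For 20 over 4 months the ratio was 0.524 for Klrc1 and 0.81 for Klri2, against -0.45 and -1.04 in Ly49-negative T cells. Gzmd gave 7.35 and Gzmf 7.66, against -1.14 and -1.35, and in both genes nearly all counts at 20 months came from 1 cell.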

How the results depend on the processing

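With 2 or more Klra counts the share of T cells was 12.2%, 16.7% and 6.09% at 4, 12 and 20 months, with 5 or more 4.56%, 6.86% and 2.54%, and with thinned cells 5.63%, 8.31% and 2.76%, each in the order of the main shares. The share of Ly49-bearing cells with a Cd8 count was 67.9%, 77.0% and 80.5% with thinned cells, and 66.3%, 79.5% and 81.0% had 2 or more Cd8 counts. At a mean of 20 CPM, 125 genes were past 2-fold lower than in Ly49-negative T cells. Leaving out each library in turn gave 56 to 115 lower and 13 to 14 higher. At 20 CPM, 24 genes were higher and 54 lower at 12 months and 46 higher and 69 lower at 20 months. With 5 or more Klra counts 18 were higher at 12 months and 7 lower at 20 months, and with TMM scaling 7 were lower at 20 months. Without the 10 highest cells of each gene, which takes a larger share of the smaller groups, 2 were lower at 12 months and 5 higher at 20 months.

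The 12 over 4 month ratio changed sign without cells with 3 or more Trgc2 counts for Trgc2 (-0.20), Tox (-0.11) and Cd7 (-0.32). It did so without the 10 highest cells for Slc5a6 (0.36), Gzma (0.064), Gzmb (0.081) and H2-Ab1 (0.42), with 5 or more Klra counts for Gzma (0.13), Ccr7 (-0.032) and H2-Ab1 (0.014), and without the highest doublet scores for Gzmb (0.061). The 20 over 4 month ratio changed sign without the 10 highest cells for Slc5a6 (0.064), Spp1 (-1.27), Ankrd6 (-0.28) and Ccl4 (-0.35), as did the median of the cytokine receptors to Ly49-negative T cells (-0.10). Removal of the Trgc2 cells lowers Trgc2 by construction. The 10 highest cells were left out of members only, which lowers ratios to Ly49-negative T cells by construction. Between ages this step takes a larger share of the smaller group, which tends to raise 12 over 4 month ratios and lower 20 over 4 month ratios. The cause of the sign changes was not tested further. Of the shares and gene counts, 26 values under an alternative moved and 46 did not. Of the values for single genes and lists, 228 were counted as moved, 16 as changed in sign and 716 as neither. A change of sign between ages was counted only where the main interval left out 0, and for a list only where its median was not near 0. The alternatives on Trgc2, on Klra4 and Klra8, on cells with a Cd8 count and on left-out libraries were chosen after seeing the data. No paired analysis was possible because each age has 1 library.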
